A study of Mus musculus with 10 samples.

Results

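The AP-1 and immediate early genes are a set of 10: the Fos family (Fos, Fosb, Fosl1 and Fosl2), the Jun family (Jun, Junb and Jund), and Egr1, Atf3 and Ier3. They were taken by symbol from the Ensembl genes of a table of FPKM (fragments counted per kilobase of a gene and scaled to the reads counted in its library), in which all 10 were present among 35275 genes. The table holds 5 libraries of mammary glands injected with lipopolysaccharide (LPS), the endotoxin of Gram-negative bacteria, and 5 of glands injected with phosphate-buffered saline (PBS). All came from BALB/c mice, an inbred strain, on day 3 of lactation. Per the labels, 50 µL of LPS at 0.4 mg/mL (E. coli 055: B5) went through the teat into a gland of the 4th pair on one side, and the same volume of PBS into the gland of the other side of the same mouse. Glands were frozen 12 h later, whole, so each library mixes epithelial, stromal, blood-derived and milk-laden cells. The labels give n = 9 and do not tie the libraries to animals, so a p-value here reflects gland-to-gland spread within this set of libraries. No uninjected gland is among the samples, so both groups carry an injection.

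The AP-1 factor is a pair of basic leucine zipper proteins, either a Jun protein with a Fos protein or 2 Jun proteins, that binds DNA at the element TGACTCA or its close relative TGACGTCA. Many of its genes are immediate early genes: they are transcribed from pre-existing factors within minutes of a stimulus such as LPS acting through Toll-like receptor 4, and their short-lived mRNAs usually fall again within hours. In the mammary gland AP-1 members are known for changes at the end of lactation and during involution, and in inflammation for the transcription of cytokines and matrix proteases.

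Depth was 15734303 to 18869545 counted reads per library. Markers of luminal epithelium (7 genes, milk proteins included) were above 0 in every library, with summed FPKM of 76930 to 105497 in LPS glands and 115162 to 147368 in PBS glands. Csn2, Wap and Lalba, the milk protein genes of that list, carried the sum; limma called 1 of the 7, the keratin gene Krt8, higher in LPS glands (log2 difference 0.53, adjusted p = 0.0445), and none lower. The 10 neutrophil markers summed to 7378 to 14196 FPKM in LPS glands and to 717 to 1874 FPKM in PBS glands, with none at 0. All 8 tested had a positive log2 difference, and limma called 5 of them higher, where it called 2.63% of all tested genes higher. S100a8 and S100a9 made up 96.8 to 99.9% of the sums of the 10 markers in all libraries. The other 8 markers summed to 18.04 to 69.8 FPKM in LPS glands and 11.8 to 22.6 FPKM in PBS glands, so these sums overlapped. Taken singly, Csf3r, Cxcr2, Ly6g and Il1r2 were higher in every LPS library than in every PBS library, while Mmp8, Mmp9, Retnlg and Itgam overlapped. Of the neutrophil markers, edgeR called 7 of 9 higher and DESeq2 9 of 10, where 2.41% and 2.63% of all genes were. In a whole gland a change in the number of cells of a type cannot be told apart from a change in RNA per cell. B cell markers were uneven within both groups, at 18.4 to 223.4 summed FPKM in LPS glands and 82.6 to 464.2 in PBS glands.

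The genes are compact. Their spans in the mouse annotation (GENCODE M21, build GRCm38, also called mm10) had a median of 4698.5 bases, with a range of 1240 bases for Ier3 to 47744 for Atf3, against a median of 21967 bases over 11382 tested genes with a span. Their longest transcripts had 1 to 4 exons, against a median of 8; Jun, Junb and Jund each had 1 exon. Fosb lies on chromosome 7 (19302696 to 19310051, minus strand), Fos on chromosome 12 (85473890 to 85477273, plus strand) and Jun on chromosome 4 (95049034 to 95052222, minus strand). Strand was not stated for the counting, so reads of overlapping genes on the other strand could enter: Prdx2 (mean 52.7 FPKM) overlaps Junb, Ccdc85b (15.8 FPKM) overlaps Fosl1, and the antisense gene Junos (1.33 FPKM) overlaps Jun. Gm11175, antisense to Jund, was listed at 0, and Gm24748, which lies within Atf3, was not in the table.

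The promoters of 6 members are shown because these genes carry the results: Fosb, the member whose groups did not overlap; Fos, its close relative with a much higher level; and Jun, Junb, Atf3 and Ier3, which were highest in many of the same libraries. Jund, which shared its highest libraries with Jun and Ier3, was searched but is not printed. Each window is the 250 bases before the transcription start in RefSeq (build GRCm38.p6), 5′ to 3′ on the gene's strand. Capitals mark TGACG, the core of the cAMP response element, on either strand (CGTCA where it lies on the other strand), TGACATCA, the AP-1-like element known from the JUN promoter, and TATAA.

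Fosb, chr7:19310046-19310295, minus strand: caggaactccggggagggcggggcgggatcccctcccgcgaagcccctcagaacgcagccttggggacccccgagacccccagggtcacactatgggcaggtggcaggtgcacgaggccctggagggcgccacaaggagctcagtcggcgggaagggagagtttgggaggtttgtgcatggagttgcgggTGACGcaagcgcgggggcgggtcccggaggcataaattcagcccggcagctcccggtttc

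Fos, chr12:85473640-85473889, plus strand: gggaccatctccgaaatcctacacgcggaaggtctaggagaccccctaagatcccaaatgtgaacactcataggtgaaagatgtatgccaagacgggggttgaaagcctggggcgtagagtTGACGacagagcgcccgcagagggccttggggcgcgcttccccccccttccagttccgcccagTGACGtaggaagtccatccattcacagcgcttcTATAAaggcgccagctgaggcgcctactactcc

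Jun, chr4:95052223-95052472, minus strand: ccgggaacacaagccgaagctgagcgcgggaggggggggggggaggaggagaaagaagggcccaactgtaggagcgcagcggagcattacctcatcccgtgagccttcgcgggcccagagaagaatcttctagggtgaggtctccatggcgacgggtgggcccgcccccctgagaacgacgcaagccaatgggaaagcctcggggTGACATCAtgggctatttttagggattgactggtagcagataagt

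Junb, chr8:84978749-84978998, minus strand: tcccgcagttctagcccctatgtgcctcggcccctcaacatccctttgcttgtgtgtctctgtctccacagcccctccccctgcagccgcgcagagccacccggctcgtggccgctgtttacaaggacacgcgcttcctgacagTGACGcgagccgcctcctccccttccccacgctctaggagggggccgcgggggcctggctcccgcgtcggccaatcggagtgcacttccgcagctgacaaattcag

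Atf3, chr1:191183334-191183583, minus strand: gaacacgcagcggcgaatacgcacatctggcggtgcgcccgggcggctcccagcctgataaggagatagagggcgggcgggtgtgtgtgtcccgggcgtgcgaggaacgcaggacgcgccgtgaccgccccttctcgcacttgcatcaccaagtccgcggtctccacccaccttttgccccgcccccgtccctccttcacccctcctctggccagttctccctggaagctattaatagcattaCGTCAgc

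Ier3, chr17:35821463-35821712, plus strand: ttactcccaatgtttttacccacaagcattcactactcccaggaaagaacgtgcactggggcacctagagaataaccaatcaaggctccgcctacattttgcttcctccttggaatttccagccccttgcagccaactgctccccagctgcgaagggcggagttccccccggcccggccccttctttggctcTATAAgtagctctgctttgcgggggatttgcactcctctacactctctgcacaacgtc

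Positions count back from the base before the start, at -1. TGACG lay at -129 to -125 and -66 to -62 in Fos, at -60 to -56 in Fosb, at -106 to -102 in Junb, and on the other strand at -7 to -3 in Atf3. That is 4 of the 8 members with a usable window, against 17.8% of 32841 RefSeq windows of the same length. Jun held TGACATCA at -45 to -38, which was found in 2.93% of all windows. TATAA was found at -33 to -29 in Fos and at -58 to -54 in Ier3, and in 22.8% of all windows. The complete cAMP response element TGACGTCA, which contains TGACG, was in none of the 8 (1.55% of all windows). Neither TGACTCA (4.46%) nor a CArG box, the element of serum response factor (1.47%), was found in these windows. Bases further upstream were not searched, and neither were Egr1 and Fosl1, so the search does not show whether these elements lie there. A match to the NF-kB site pattern was present in Fos, Fosb, Fosl2 and Ier3, and in 3.9% of all windows. Both strands were searched, and a match is a description of the letters, not of a bound site. The Atf3 window lies 34706 bases inside the annotated gene start, at an internal start. The Fosl2 and Jund windows, counted but not printed, lie 671 and 1210 bases from the annotated start. Egr1 and Fosl1 are named here without a window.

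The Fosb gene was the one member whose LPS and PBS glands did not overlap, and it was also the least abundant of the 10. Its product dimerizes with Jun proteins, and the gene is known for strong, brief induction by stimuli. Fosb was at 0.466, 0.691, 0.447, 0.234 and 0.472 FPKM in LPS replicates 1 to 5, and at 0.177, 0.205, 0.126, 0.0339 and 0.0833 FPKM in PBS replicates 1 to 5. Every LPS library lay above every PBS library, though LPS replicate 4 was close to PBS replicate 2. In reads this was 33, 47, 29, 14 and 30 in LPS glands, against 12, 13, 8, 2 and 5 in PBS glands. The means were 0.462 ± 0.162 FPKM in LPS glands and 0.125 ± 0.0693 FPKM in PBS glands (SD, n = 5 each), a ratio of 3.69. Of the 23059 genes above 0 in any library, 2.08% had LPS libraries that all exceeded the PBS libraries, and 0.863% had them all below.

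Fosb did not pass the filter of FPKM of at least 1 in at least 5 libraries, so it was not among the genes of the limma test on log2(FPKM + 1). In limma without the filter, its difference was 0.37 ± 0.08 on that log2 scale (SE, 95% interval 0.20 to 0.55), with an adjusted p of 0.0676, in a fit that called 0.438% of 23059 genes higher in LPS glands. On whole reads recovered from the FPKM, the log2 fold change was 1.80 in edgeR (adjusted p = 0.0272) and 1.82 ± 0.44 in DESeq2 (SE, adjusted p = 0.00159). Thus 1 of the 10 members was called higher in edgeR, where 2.41% of 13796 genes were, and 1 of 10 in DESeq2, where 2.63% of 23059 genes were. The authors' deposited table lists Fosb, and no other member, with a log2 fold change of 0.986 and an adjusted p of 0.00139. That table lists 1.72% of all genes as higher in LPS glands. Its Fosb counts equal the recovered reads, and how its smaller fold change was estimated is not given in the sources used here. The fold changes are therefore not set side by side as 1 measure. A two-sided exact permutation test on Fosb alone gave p = 0.00794, the smallest that the 252 splits allow, without adjustment. Groups that do not overlap must give this value, so it restates the separation and adds nothing to it. The edgeR call was lost in 5 of 10 fits that left out 1 library. The adjusted p was 0.0886 without LPS replicate 2, 0.0672 without LPS replicate 5, 0.0542 without PBS replicate 3, 0.0568 without PBS replicate 4 and 0.0654 without PBS replicate 5, and the log2 fold change stayed between 1.57 and 2.0. Among LPS glands, replicate 4 was lowest both in Fosb and in the sum of all 10 neutrophil markers. Without S100a8 and S100a9, replicate 2 was highest in the marker sum, as it was in Fosb, and replicate 1 was lowest. The part of infiltrating cells in the Fosb difference was not tested.

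**Figure D1:**
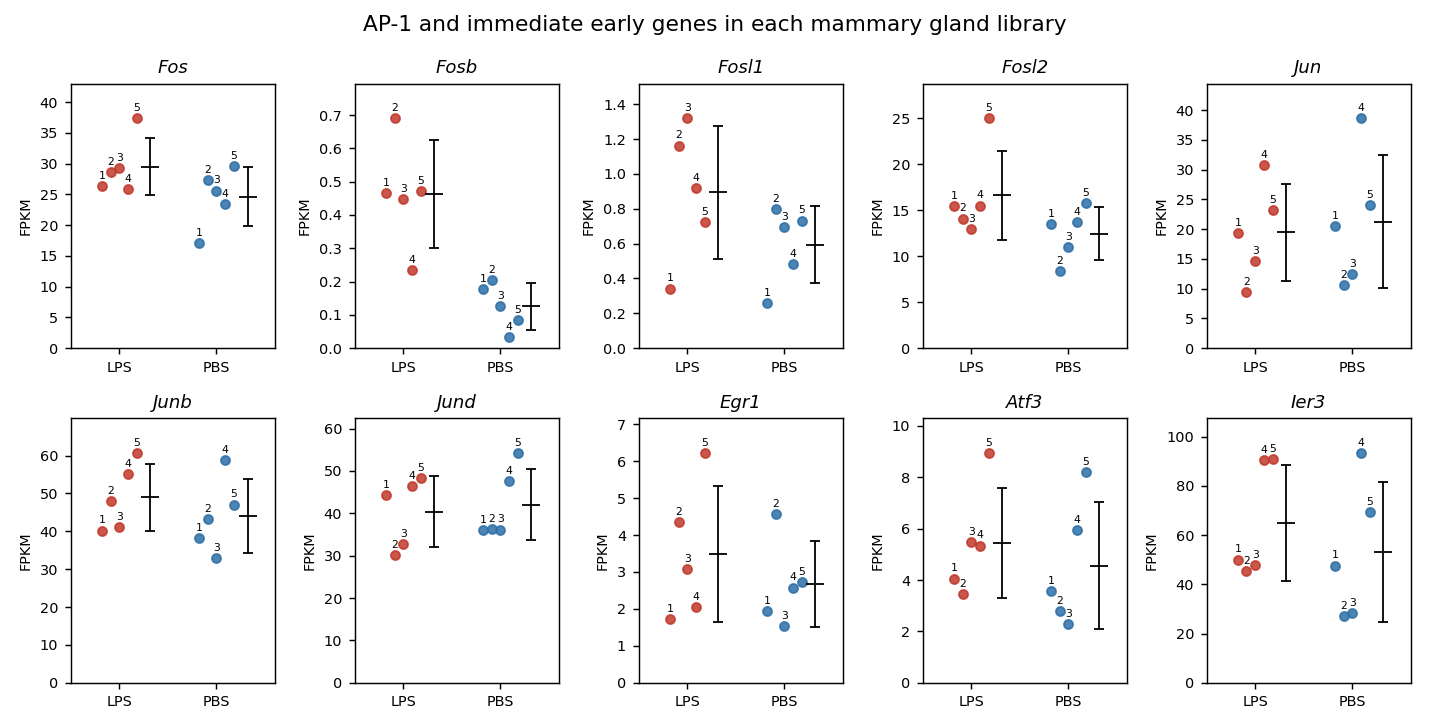
FPKM of each of the 10 genes (y axis, from 0, a panel per gene) in LPS and PBS glands (x axis). Each point is 1 library, marked with its replicate number, and the bar beside the points is the mean ± SD; the points of LPS and PBS glands separate in the Fosb panel, at 0.234 to 0.691 FPKM against 0.0339 to 0.205 FPKM, and overlap in the other panels.

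None of the 8 members that passed the filter was called in either direction by limma at an adjusted p below 0.05, where 3.23% of the 11414 tested genes were (300 higher in LPS glands, 2.63%, and 69 lower, 0.605%). An unadjusted limma p below 0.05 was found for none of the 8, and for 1879 of the 11414 tested genes. The median log2 difference of the 8 was 0.26, with 6 positive and 2 negative. Over all tested genes the median was 0.05, with 7003 positive and 4411 negative. Fos, the prototype partner of Jun, had 26.3, 28.7, 29.3, 25.9 and 37.4 FPKM in LPS glands, against 17.1, 27.3, 25.6, 23.5 and 29.7 FPKM in PBS glands. The ranges overlapped, with the highest value in LPS replicate 5 and the lowest in PBS replicate 1. The log2 difference was 0.26 ± 0.14 (SE, limma adjusted p = 0.403), with a 95% interval of -0.05 to 0.57. Fosl2, a Fos relative without a strong activation domain, had 15.5, 14.1, 13.0, 15.5 and 25.0 FPKM in LPS glands, against 13.5, 8.37, 10.97, 13.7 and 15.8 FPKM in PBS glands. LPS replicate 5 stood well above the other 9 libraries, which overlapped. The log2 difference of Fosl2 was 0.38 ± 0.18 (SE, limma adjusted p = 0.332), with a 95% interval of -0.02 to 0.78. Fosl2 was higher in the LPS library of all 5 same-numbered pairs, and so were Fos and Fosb. With a replicate block, the adjusted p of Fosl2 was 0.0432 in limma, in a fit that called 8.43% of genes higher, and 0.0711 in edgeR. That of Fos was 0.0938 in limma and 0.172 in edgeR. The labels do not say whether same-numbered libraries share a mouse.

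Fosl1, which encodes Fra-1, another Fos relative that pairs with Jun proteins, was low throughout. It had 0.342, 1.16, 1.32, 0.918 and 0.726 FPKM in LPS glands, against 0.259, 0.799, 0.693, 0.484 and 0.732 FPKM in PBS glands, from 11 to 39 and from 8 to 23 reads. The groups overlapped, with both replicate 1 libraries lowest in their own group. Fosl1 did not pass the filter either. Without it, limma gave a log2 difference of 0.24 ± 0.16 (SE, 95% interval -0.11 to 0.59, adjusted p = 0.669). The adjusted p was 0.519 in edgeR and 0.567 in DESeq2.

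Within the Fos family the share of each gene overlapped between the groups. Fos made up 62.4 ± 2.99% of the family's summed FPKM in LPS glands and 64.9 ± 7.24% in PBS glands (SD, n = 5 each). Fosl2 took 34.6 ± 3.99% in LPS glands and 33.2 ± 7.77% in PBS glands. Fosl1 took 1.94 ± 0.942% in LPS glands and 1.55 ± 0.516% in PBS glands. Fosb took 0.990 ± 0.380% in LPS glands and 0.348 ± 0.218% in PBS glands, so its higher level in LPS glands left it near 1% of the family. The summed FPKM of the 4 genes was 42.5 to 63.6 in LPS glands and 31.0 to 46.2 in PBS glands.

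**Figure D2:**
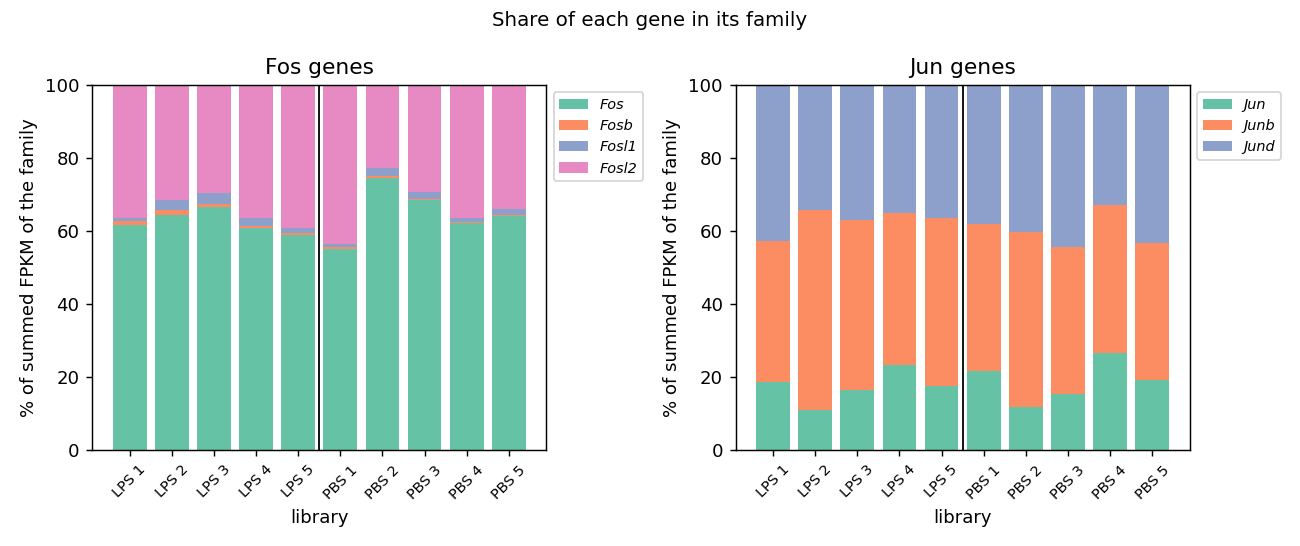
Share of each gene in the summed FPKM of its family (y axis, percent) in each library (x axis, LPS glands left of PBS glands), with the Fos genes and the Jun genes in separate panels. Fos and Fosl2 fill almost all of every Fos bar, and the Jun share runs from 10.8 to 23.3% in LPS glands and from 11.8 to 26.6% in PBS glands.

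The Jun genes overlapped between the groups and varied among the glands of each. Jun, the partner shared by all Fos proteins, had 19.3, 9.47, 14.6, 30.8 and 23.2 FPKM in LPS glands, against 20.4, 10.6, 12.5, 38.7 and 24.1 FPKM in PBS glands. In both groups replicate 4 was highest and replicate 2 lowest. The highest library was 4.08 times the lowest, while the log2 difference between groups was -0.08 ± 0.34 (SE, limma adjusted p = 0.951), with a 95% interval of -0.82 to 0.67. The sign of this difference changed with single libraries: it was 0.14 without LPS replicate 2, 0.17 without PBS replicate 4 and 0.0016 without PBS replicate 5.

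Junb, which often restrains Jun activity, had 40.2, 48.0, 41.2, 55.0 and 60.7 FPKM in LPS glands, against 38.3, 43.3, 33.0, 58.8 and 47.1 FPKM in PBS glands. The groups overlapped, and PBS replicate 4 was second only to LPS replicate 5. Its log2 difference was 0.16 ± 0.16 (SE, limma adjusted p = 0.693; 95% interval -0.18 to 0.50), and it was -0.02 when FPKM were rescaled to the sum outside milk protein genes, which moved the median of all tested genes to -0.10. Jund, the most constantly expressed Jun gene in many tissues, had 44.3, 30.1, 32.7, 46.5 and 48.3 FPKM in LPS glands, against 36.0, 36.2, 36.1, 47.7 and 54.3 FPKM in PBS glands. PBS replicate 5 was highest and LPS replicate 2 lowest, with a log2 difference of -0.06 ± 0.16 (SE, limma adjusted p = 0.907; 95% interval -0.41 to 0.29). Junb was the largest part of the summed Jun FPKM, with 45.5 ± 6.11% in LPS glands and 41.4 ± 3.93% in PBS glands. Jund followed with 37.1 ± 3.27% in LPS glands and 39.7 ± 4.58% in PBS glands, and Jun was the smallest with 17.3 ± 4.48% in LPS glands and 18.9 ± 5.73% in PBS glands (SD, n = 5 each).

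Egr1, a zinc finger factor induced through serum response factor, had 1.73, 4.35, 3.08, 2.05 and 6.22 FPKM in LPS glands, against 1.94, 4.57, 1.53, 2.58 and 2.73 FPKM in PBS glands. LPS replicate 5 was highest, and the other LPS libraries lay within the PBS range. Its log2 difference was 0.25 ± 0.27 (SE, limma adjusted p = 0.725; 95% interval -0.34 to 0.83). Atf3, a stress-induced zipper protein known to restrain transcription of inflammatory genes after Toll-like receptor signals, had 4.06, 3.45, 5.48, 5.34 and 8.95 FPKM in LPS glands, against 3.57, 2.78, 2.30, 5.96 and 8.19 FPKM in PBS glands. Replicate 5 was highest in both groups. The log2 difference was 0.27 ± 0.28 (SE, limma adjusted p = 0.719; 95% interval -0.34 to 0.88). Ier3, an early response gene that modulates cell survival and NF-kB signals, had 50.1, 45.3, 47.8, 90.4 and 90.9 FPKM in LPS glands, against 47.6, 27.0, 28.5, 93.5 and 69.3 FPKM in PBS glands. Replicates 4 and 5 of both groups were the 4 highest, apart from the other 6 libraries. The log2 difference was 0.37 ± 0.33 (SE, limma adjusted p = 0.658; 95% interval -0.35 to 1.10).

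**Figure D3:**
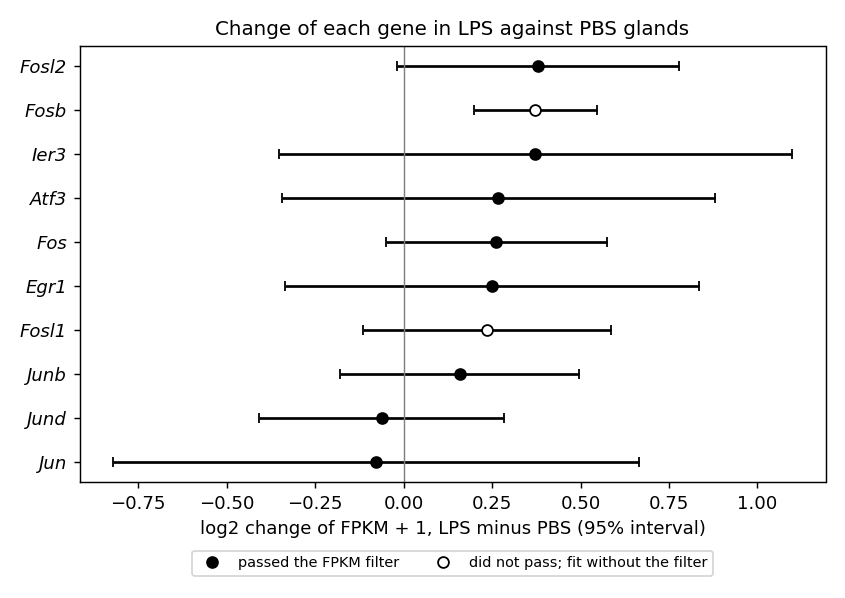
Difference in mean log2(FPKM + 1) between LPS and PBS glands (x axis, log2 units) for each gene (y axis), with 95% intervals from limma. Open symbols are Fosb and Fosl1, which did not pass the filter and come from the fit without it; only the Fosb interval, 0.20 to 0.55, lies clear of 0.

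The order of the mean levels was the same in both groups: Ier3, Junb, Jund, Fos, Jun, Fosl2, Atf3, Egr1, Fosl1 and Fosb, from highest to lowest. This order and the family shares depend on the gene lengths behind the FPKM. The lengths recovered from the FPKM were not always the M21 exon lengths: 2878 against 1668 bases for Jund, 3751 against 6243 for Fosb and 5855 against 9680 for Fosl2. For Jun, Egr1 and Ier3 they were equal. Ier3, Junb and Jund overlapped one another in both groups. Jund at 30.1 to 48.3 FPKM overlapped Fos at 25.9 to 37.4 FPKM in LPS glands, and lay above it in PBS glands, at 36.0 to 54.3 FPKM against 17.1 to 29.7 FPKM. Fos and Jun overlapped, as did Jun and Fosl2. Fosl2 and Atf3 did not overlap in either group, and neither did Egr1 and Fosl1, while Atf3 and Egr1 overlapped in both. Fosl1 overlapped Fosb in LPS glands and lay above it in PBS glands.

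The members varied between glands of 1 group more than most genes did. The SD of log2(FPKM + 1) within groups was 0.25 to 0.67 for the 8 tested members, with a median of 0.42, against a median of 0.20 over all tested genes. The SD of Jun was larger than that of 98.7% of the tested genes, that of Ier3 larger than 98.6%, that of Atf3 larger than 97.2% and that of Egr1 larger than 96.7%. At the other end, Fos had a larger SD than 71.1% of tested genes, Junb than 78.0%, Jund than 79.8% and Fosl2 than 87.1%.

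This spread followed the same libraries for several members. Jun, Jund and Ier3 had the same 4 highest libraries, replicates 4 and 5 of both groups. The 4 highest libraries of Atf3 were LPS replicate 5, PBS replicates 5 and 4, and LPS replicate 3. Those of Junb were LPS replicate 5, PBS replicate 4, LPS replicate 4 and LPS replicate 2. Fos and Egr1 followed another order below LPS replicate 5: Fos was next highest in PBS replicate 5 and LPS replicates 3 and 2, and Egr1 in PBS replicate 2 and LPS replicates 2 and 3. LPS replicate 5 was among the 4 highest libraries for 9 of the 10 members, and PBS replicates 1 and 3 for none. The authors' size factors were lowest in the same 4 libraries that were high in Jun, at 0.957 and 0.928 in LPS replicates 4 and 5 and 0.926 and 0.833 in PBS replicates 4 and 5, against 0.966 to 1.16 in the other 6. These factors also carry depth, for which FPKM is already scaled. Median-of-ratios scales of the FPKM were 1.02 and 0.934 in LPS replicates 4 and 5. They were 1.004 and 0.887 in PBS replicates 4 and 5, and overlapped the 0.911 to 1.13 of the other 6. The labels name no batch and do not say whether same-numbered LPS and PBS libraries share a mouse. Over the tested genes, deviations of same-numbered libraries correlated at 0.0993 to 0.494, and those of other pairs at -0.362 to 0.421. The parts of shared animals and of library composition in this pattern were not tested.

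**Figure D4:**
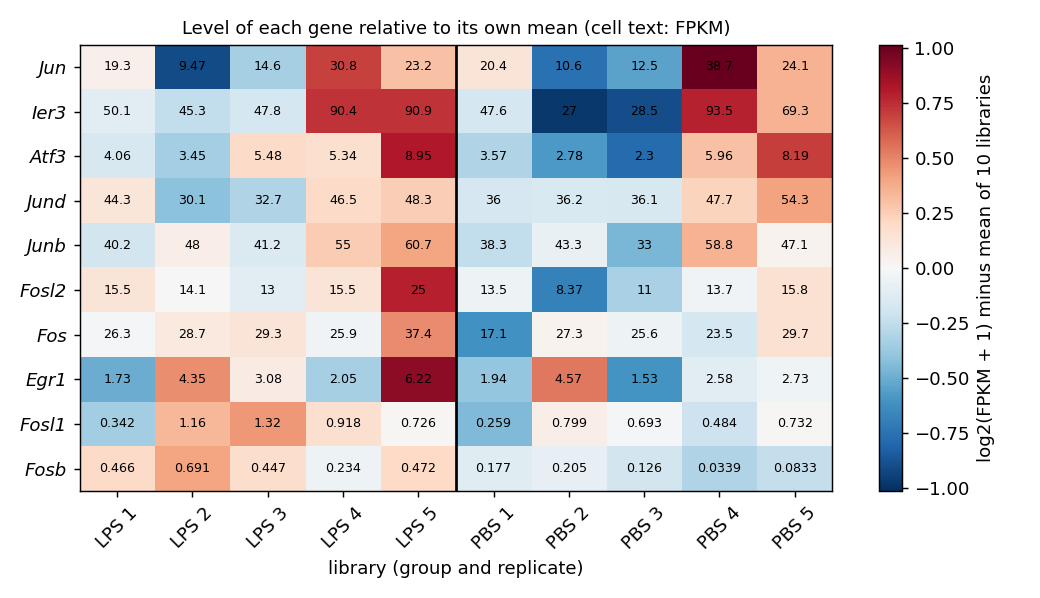
log2(FPKM + 1) of each gene minus its own mean over the 10 libraries (colour, log2 units), with genes in rows and libraries in columns, LPS glands left of PBS glands; the text in each cell is the FPKM. Jun, Ier3 and Jund are high in replicates 4 and 5 of both groups, and Fosb is higher in all LPS columns than in all PBS columns.

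Jun had the widest range of the 10 members on the log2(FPKM + 1) scale, 1.92 units, and was therefore the one whose nearest genes were sought. Among 7142 other genes with a mean FPKM of at least 5, likeness was the root mean square difference of log2(FPKM + 1) centred on each gene's mean over the 10 libraries; its median was 0.672. Zfp36l1, which encodes a protein that destabilizes mRNAs, was nearest, at 0.157. It had 15.9, 10.01, 11.5, 27.8 and 21.5 FPKM in LPS glands, against 15.0, 9.77, 10.6, 28.8 and 17.7 FPKM in PBS glands. As with Jun, replicate 4 was highest and replicate 2 lowest in both groups. The next were Pdgfc, a growth factor (0.285), Sox4, a transcription factor (0.308), Ier3 (0.316) and Chac1, a glutathione-degrading enzyme of the stress response (0.331). Jund ranked 25 (0.414), Atf3 63 (0.458), Junb 100 (0.488) and Fosl2 180 (0.517). Fos ranked 4022 at 0.685, past the median. Genes with little variation of their own cannot come near Jun by this measure.

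**Figure D5:**
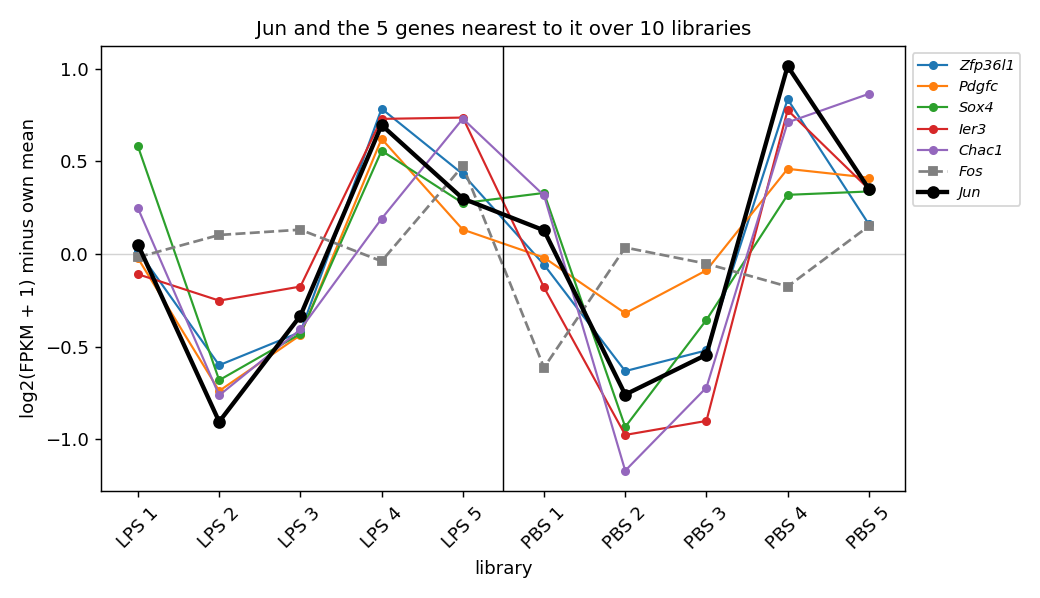
log2(FPKM + 1) minus each gene's own mean (y axis, log2 units) in the 10 libraries (x axis, LPS glands left of PBS glands) for Jun, the 5 genes nearest to it and, dashed in grey, Fos. The lines of Jun and its 5 neighbours lie above their means in replicates 4 and 5 of both groups and below them in replicates 2 and 3.

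Lists of related genes were examined in the same limma fit. Over all 11414 tested genes, 1879 had an unadjusted limma p below 0.05, 1414 of them higher and 465 lower. Over all genes, edgeR called 333 of 13796 higher, and DESeq2 607 of 23059. Of 11 tested early-response transcription factors outside the set, limma called none in either direction; 2 had an unadjusted p below 0.05, both higher, with none called by edgeR and 1 by DESeq2. The median log2 difference was 0.21. The 2 most abundant were Klf6, a zinc finger factor, at 46.1 ± 13.1 FPKM in LPS glands and 39.3 ± 7.91 in PBS glands (SD, n = 5 each; limma adjusted p = 0.668), and Ier2, an early response regulator of transcription, at 20.3 ± 4.17 FPKM in LPS glands and 18.5 ± 5.23 in PBS glands (limma adjusted p = 0.767). The DESeq2 call was Ier5l, chosen for mention after its values were seen, at 6.32 ± 2.02 FPKM in LPS glands and 3.26 ± 1.03 in PBS glands (DESeq2 adjusted p = 0.0189, limma adjusted p = 0.0589).

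Among 28 feedback and effector genes of the early response, all tested, 2 were called higher and none lower by limma, where 2.63% of all tested genes were higher, and the median log2 difference was 0.20. edgeR called 1 higher (Socs3), and DESeq2 3 (Socs3, Plk2 and, named after its values were seen, Gadd45b); neither called any lower. Both calls depended on single libraries. Plk2, a kinase induced early after serum, had 10.5 ± 3.22 FPKM in LPS glands and 5.69 ± 0.889 in PBS glands (log2 difference 0.75 ± 0.17 SE, limma adjusted p = 0.0347), and its call held in 2 of 10 fits that left out 1 library, with an adjusted p of up to 0.0934; in edgeR the adjusted p was 0.0586. Socs3, the feedback inhibitor of cytokine receptors, had 24.7 ± 4.73 FPKM in LPS glands and 15.9 ± 2.44 in PBS glands (0.60 ± 0.13 SE, limma adjusted p = 0.0307), and its call held in 4 of 10 such fits, with an adjusted p of up to 0.086. Both calls were lost after rescaling outside milk proteins, with limma adjusted p of 0.131 for Plk2 and 0.0758 for Socs3.

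Of 24 tested genes for other basic leucine zipper factors, none was called in either direction by limma, edgeR or DESeq2; an unadjusted limma p below 0.05 was found for 1 higher and 1 lower gene, and the median log2 difference was 0.04. Cebpd, a factor of acute-phase responses, was at 238.1 ± 46.3 FPKM in LPS glands and 237.8 ± 43.6 in PBS glands (SD, n = 5 each; limma adjusted p = 0.999), and Atf4, the factor of the integrated stress response, at 129.5 ± 16.4 FPKM in LPS glands and 127.5 ± 9.26 in PBS glands (limma adjusted p = 0.967). Of 23 tested genes for kinases and serum response factor partners, limma called none, while an unadjusted p below 0.05 was found for 3 higher genes and 1 lower gene, and the median was 0.03. Mapk3 (ERK1) was at 58.4 ± 6.79 FPKM in LPS glands and 55.6 ± 5.64 in PBS glands (limma adjusted p = 0.825), and Map2k2, which activates it, at 36.5 ± 2.51 FPKM in LPS glands and 36.5 ± 2.96 in PBS glands (limma adjusted p = 0.999). edgeR and DESeq2 each called Map3k1, named after its values were seen, lower in LPS glands, at 11.3 ± 2.64 FPKM in LPS glands and 15.9 ± 1.61 in PBS glands (edgeR adjusted p = 0.0368, limma adjusted p = 0.0812). Over all genes, 132 of 13796 were called lower in edgeR and 296 of 23059 in DESeq2.

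Of 12 tested genes known as AP-1 targets, 3 were called higher and 2 lower by limma, where 2.63% of all tested genes were higher and 0.605% lower, with a median log2 difference of 0.45. edgeR called 4 of 12 higher and 2 lower, where it called 333 of 13796 genes higher and 132 lower. DESeq2 called 7 of 15 higher and 2 lower, where it called 607 of 23059 genes higher and 296 lower. The calls that limma did not share, named after their values were seen, were Plaur in both and Mmp9, Mmp13 and Il6 in DESeq2; Mmp13 and Il6 did not pass the FPKM filter. Ccl2, a monocyte-attracting chemokine, averaged 24.3 ± 10.8 FPKM in LPS glands and 6.64 ± 2.61 in PBS glands (log2 difference 1.67 ± 0.31 SE, limma adjusted p = 0.0157). Mmp3, the matrix protease stromelysin-1, averaged 77.6 ± 30.9 FPKM in LPS glands and 29.0 ± 9.42 in PBS glands (1.36 ± 0.28 SE, limma adjusted p = 0.0200); its call held in 6 of 10 fits that left out 1 library, with an adjusted p of up to 0.0579. Spp1, which encodes the secreted protein osteopontin, was lower, at 2551 ± 793 FPKM in LPS glands and 6092 ± 1328 in PBS glands (-1.28 ± 0.22 SE, limma adjusted p = 0.0102). Timp1, an inhibitor of matrix proteases, averaged 37.2 ± 5.01 FPKM in LPS glands and 22.0 ± 1.92 in PBS glands (0.73 ± 0.10 SE, limma adjusted p = 0.00430). The fifth call, outside the rule for named genes, was Vegfa, the vascular growth factor, lower at 12.4 ± 1.53 FPKM in LPS glands and 19.9 ± 3.35 in PBS glands (-0.64 ± 0.12 SE, limma adjusted p = 0.0158; 0.0511 without PBS replicate 4). These genes are also transcribed through other factors and in other cell types, and the part of cell composition in their differences was not tested.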

How the data were processed

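Total RNA of 10 mammary glands was sequenced. The submitters' processing notes name build mm10 and the tools HTSeq 0.6.1, STAR 2.5 and DESeq2, with 2 as its version; settings, roles, strand and annotation release are not given in the sources used here. For all genes the authors deposited FPKM, with a column per library. The authors' list of 908 genes holds raw counts, a signal (counts divided by the authors' size factor of each library), log2 fold changes and p-values, per the file headers. Symbols matched 34493 of 35275 Ensembl IDs; 12216 genes were at 0 in all libraries.

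FPKM were tested as log2(FPKM + 1) with limma 3.58.1 (R 4.3.3, intensity trend, two-sided, group as the only term). Tested genes reached 1 FPKM in 5 or more of the 10 libraries, and a call needed a Benjamini-Hochberg adjusted p below 0.05. This scale understates changes of low genes. Whole reads were recovered from FPKM for 100% of the 23059 genes above 0 (tolerance 0.002 reads, at least 99.98% of each depth); counts equalled the deposited ones for 907 of 908 listed genes. On them edgeR 4.0.16 (quasi-likelihood, TMM) called 333 genes higher and 132 lower, and DESeq2 1.42.0 called 607 higher and 296 lower. Intervals on reads were not drawn; depth limits counting error only.

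The members and the gene lists were chosen with earlier results of these data known. Within each list the 4 called genes of largest change were named, or the 2 of highest mean FPKM where none was called. Alternatives were pseudocounts of 0.1 and 5, no filter, a mean FPKM of at least 5, median-of-ratios scaling, rescaling outside milk proteins, a replicate block, no trend, library weights, a B and T cell covariate, and leaving out libraries. edgeR with the block, and edgeR without each library, were added after the data were seen. The fits were tested on simulated data. Promoters are RefSeq windows.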

Additional observations from a re-analysis of the deposited data

Results flagged for a closer look

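Fosl2 in LPS replicate 5, at 25.0 FPKM, stood apart from the other 4 LPS libraries, which were at 13.0 to 15.5 FPKM. The gap to the nearest library was 0.792 of the group's range, past the limit of 0.71 for 5 samples. This was 1 of 20 groups checked (10 members in LPS and in PBS glands), and chance gives about 1 in 20. The same library was also highest or second highest among LPS glands for Fos, Junb, Jund, Egr1, Atf3, Ier3, Fosb and Jun, and without it the log2 difference of Fosl2 was 0.23, against 0.38 with all libraries.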

How the results depend on the processing

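No member was called lower under any alternative. One member was called higher in edgeR and in DESeq2 on recovered reads (Fosb in both), against 0 with limma, and 0 under the limma alternatives other than the replicate block. Among the limma fits, Fosb and Fosl1 entered only the one without the filter, so the others could not call them. Fosb had a limma adjusted p of 0.0676 there. Two-sided exact permutation tests of the 9 members besides Fosb, unadjusted, gave p of 0.127 (Fosl2) to 0.857 (Jun). The sign of Jun's log2 difference was reversed without the 4 libraries of highest Cd79a (0.37), and leaving out 1 library gave -0.28 to 0.17. Jund was reversed without those 4 libraries too (0.16), with -0.13 to 0.0352 when 1 library was left out, and Junb after rescaling outside milk proteins (-0.0184). The cause was not tested. The other members kept their sign under every limma alternative, edgeR and DESeq2 on all libraries, and edgeR with the replicate block. In edgeR without 1 library, Junb went down to -0.03, Egr1 to -0.02 and Atf3 to -0.11, and Jun and Jund also changed sign, while Fos, Fosb, Fosl1, Fosl2 and Ier3 stayed positive. The shares within the Fos and Jun genes moved by less than 1 SD, but these alternatives could not have moved them further. Leaving out 1 of 5 libraries cannot shift a mean by 1 SD, and the recovered reads come from the same FPKM.

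Counts over all genes moved more. Against 300 genes higher and 69 lower, no filter gave 101 and 25, rescaling outside milk proteins 132 and 241, library weights 534 and 122, the B and T cell covariate 624 and 105, and the fit without the 4 libraries of highest Cd79a 8 and 0, with fewer samples. edgeR gave 333 and 132, and DESeq2 607 and 296. Leaving out 1 library gave 121 to 429 higher and 27 to 88 lower. Of the other listed genes, 5 were higher and 2 lower; no filter gave 1 and 0, rescaling outside milk proteins 3 higher, library weights 9, the covariate 8, DESeq2 11, and the fit without 4 libraries 0 and 0. Leaving out 1 library gave 2 to 8 higher and 1 to 3 lower.

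Whether the replicate numbers pair the glands was not settled. Deviations of same-numbered libraries all correlated positively, at 0.0993 to 0.494, and other pairs at -0.362 to 0.421. Of 5 LPS libraries 3, and of 5 PBS libraries 2, correlated best with their own number. The main fit had no term for animal, so any spread between mice stayed in its SE. With a replicate block limma called 962 genes higher (8.43%) and 267 lower, 1 member higher (Fosl2, adjusted p = 0.0432) and 15 other listed genes higher. Fos and Ier3 were not called, at limma adjusted p of 0.0938 and 0.0951 with the block, against 0.403 and 0.658 without it. edgeR with the block called 800 higher (5.8%) and 491 lower, 1 member higher (Fosb, adjusted p = 0.00352), and 13 other listed genes higher and 5 lower. Fosb and Fosl1, with 2 to 47 and 8 to 39 reads per library, are limited by depth.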
